A study of Mus musculus with 6 samples.

Results

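Class III receptor tyrosine kinases are cell surface receptors with 5 members in mouse: KIT, FLT3, CSF1R and both PDGF receptors. The genes described here are these 5 receptors (Kit, Flt3, Csf1r, Pdgfra and Pdgfrb) with the KIT ligand Kitl and the FLT3 ligand Flt3l, 7 of the 54532 genes in the count table. They were chosen by name as a receptor family and not by their values, but with earlier results of these data known. RNA was sequenced from GFP+ leukemia cells sorted from mouse bone marrow, in 3 WT Phf6,RE9a libraries (replicates 1, 2 and 3) and 3 VC Phf6,RE9a libraries (replicates 11, 12 and 13). Both groups arose from fetal liver cells without lineage markers, carrying a floxed Phf6 allele on their single X chromosome and infected with a retrovirus for RUNX1-ETO9a (RE9a) and GFP, which were transplanted into male mice. RE9a is a short splice form of the fusion protein of t(8;21) leukemia, and it and GFP were not analysed here. In the VC cells the Vav1-Cre transgene, which is active throughout the blood lineages, had deleted Phf6, a chromatin protein gene; the WT cells had no Cre. The labels used here give neither the age of the recipients nor whether the 3 libraries of a group came from separate leukemias, so p-values measure only the spread between these samples.

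All members of the family share an extracellular part of immunoglobulin-like domains and a tyrosine kinase that is split by an insert. Ligand dimers pair receptor chains, the chains phosphorylate each other, and adaptors and enzymes such as GRB2, GAB2, PI3 kinase, PLCγ and SRC family kinases bind the phosphorylated sites. KIT and its ligand, stem cell factor, are known for maintaining blood stem cells and mast cells. FLT3 serves early progenitors and dendritic cells, CSF1R monocytes and macrophages, and the PDGF receptors mostly stromal cells and pericytes. KIT and FLT3 are also known as targets of activating mutations in acute myeloid leukemia.

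Total counts per library ranged from 15675358 to 16817994. Log2 expression correlated at r = 0.975 to 0.988 between libraries of a group and at 0.872 to 0.909 between groups, and the first principal component, which separated the groups, held 81.0% of the variance. Phf6 had 1044, 827 and 1142 counts in WT replicates 1, 2 and 3, and 388, 314 and 331 in VC replicates 11, 12 and 13. It was lower in every VC library, by 1.66 on the log2 scale (SE 0.13, adjusted p = 9.32e-05, edgeR's quasi-likelihood test), but was not at 0. In the same test 14169 genes had enough counts, and 44.2% of them passed an adjusted p of 0.05 in either direction, 21.5% higher and 22.7% lower in VC, around a median log2 fold change of 0.013.

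Of the 7 members, 0 rose, 3 fell (Kit, Flt3l and Pdgfrb), 2 were tested and not called (Flt3 and Csf1r) and 2 had too few counts for the test (Kitl and Pdgfra). The groups did not overlap for 4 members, all lower in VC, beside 57.3% of all tested genes in either direction and 28.4% with every VC library below every WT library. With so large a part of the transcriptome called, the number of members called is not a result about the family, and the levels and sizes of change are given gene by gene. Kit was by far the most abundant member and fell 8.85-fold. Flt3l fell by less than Kit, Csf1r and Flt3 overlapped between the groups, and Pdgfrb, Pdgfra and Kitl were near the lower end of detection.

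**Figure D1:**
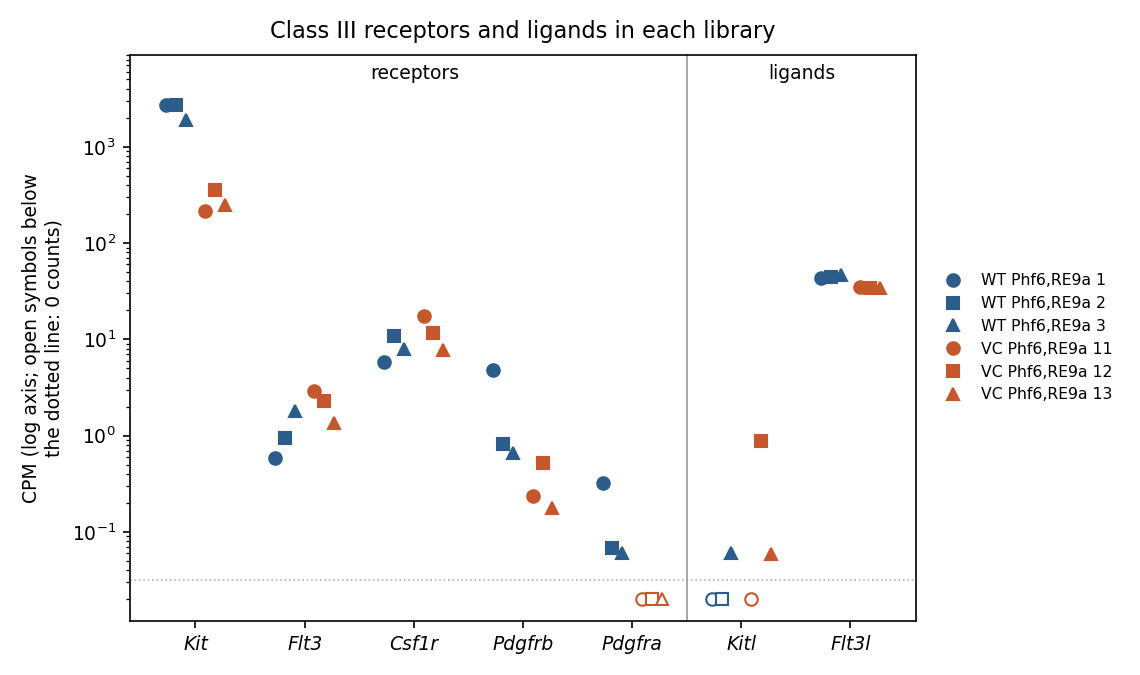
CPM (counts scaled to library size, log axis) of the 5 receptors and 2 ligands in each library, WT in blue and VC in orange, one symbol per library, open symbols for 0 counts. Kit lies about an order of magnitude lower in all 3 VC libraries, Flt3l lies slightly lower, and Flt3 and Csf1r overlap between the groups.

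Kit encodes the stem cell factor receptor and lies on chr5:75574916-75656722, plus strand, in the GRCm38 coordinates of the deposited table. It had 41368, 39756 and 31001 counts in the WT libraries, and 3679, 6040 and 4218 in the VC libraries. The lowest WT library was more than 5 times the highest VC library in CPM, so the groups were far apart. Mean expression was 2420 ± 471 CPM in WT and 273 ± 70.1 CPM in VC (SD, n = 3 each). The log2 fold change was -3.15 (SE 0.23, 95% interval -3.69 to -2.61, adjusted p = 7.75e-05, edgeR's quasi-likelihood test). Leaving out any one library kept it between -3.37 and -3.00. Only 347 of the 14169 tested genes, 2.45%, fell at least as far, and among the 2511 genes with a mean of at least 100 CPM the number was 30, Kit included. By mean count Kit stood 22nd of all genes in WT and 609th in VC. As bulk RNA, these counts cannot tell fewer Kit-expressing cells from less Kit RNA per cell.

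Kit is also a defining gene of mast cells, and the markers of that lineage were abundant in WT. The mast cell and basophil list, without Kit, summed to 20460 to 33293 CPM in the WT libraries and to 6426 to 7092 CPM in the VC libraries. Of its 14 genes, all tested, 12 fell and 1 rose (Cd200r3), beside 22.7% and 21.5% of all tested genes, with Ms4a2 not called. Its most abundant genes were Hdc, the histamine-forming enzyme, at 5973 ± 1853 CPM in WT and 2563 ± 104 CPM in VC, and Cpa3, a mast cell protease, at 6749 ± 1507 and 274 ± 116 CPM. The stem and progenitor list, the other compartment where Kit is known to be high, summed to 685 to 1457 CPM in WT and 543 to 550 CPM in VC. Cd34 was at 205, 773 and 170 CPM in the WT libraries and at 7.62, 31.6 and 7.13 CPM in the VC libraries. The separation of the sums rested on this gene, and WT replicate 2 gave the 1457 CPM. Adgrg1, which rose, was most of each VC sum, at 469 ± 22.5 CPM. In that list 4 genes fell (Cd34, Ly6a, Slamf1 and Cd48) and 2 rose (Sox4 and Adgrg1), of 8 tested, beside 22.7% and 21.5% of all tested genes. Sox4 had 2, 1 and 8 counts in WT and 52, 67 and 35 in VC, and entered the test through its VC counts. The part of either lineage in the Kit difference was not tested.

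The bases just before the transcribed part of a gene are its proximal promoter. The promoters of Kit, Flt3 and Flt3l are shown because Kit was the most abundant member and fell 8.85-fold. Flt3 and Flt3l are the only receptor and ligand pair among the members with both genes tested. The sequences are the proximal promoters of these genes. They come from RefSeq (GRCm38.p6), and each is printed 5′ to 3′ on the strand of its gene. Capitals mark matches, on either strand, to any of 5 short motifs within the 250 bases before the RefSeq start. The GATA motif was searched as TGATAA and also with A as the first letter. The E-box of basic helix-loop-helix factors such as TAL1 was searched as CANNTG. The RUNX motif, which RUNX1 and its fusions bind, was searched as TGTGGT and also with C for the third letter. The ETS motif, whose core PU.1 binds, was searched as GAGGAA. The NF-κB motif was searched as GGGA and CC with any 4 letters between them. The Kit sequence stops at base 179, where the deposited gene begins.
Kit, chr5:75574737-75574915, plus strand: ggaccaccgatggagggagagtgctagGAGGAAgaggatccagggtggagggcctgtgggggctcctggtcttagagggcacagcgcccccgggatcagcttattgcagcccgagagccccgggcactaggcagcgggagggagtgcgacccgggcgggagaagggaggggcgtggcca
Flt3, chr5:147400490-147400739, minus strand: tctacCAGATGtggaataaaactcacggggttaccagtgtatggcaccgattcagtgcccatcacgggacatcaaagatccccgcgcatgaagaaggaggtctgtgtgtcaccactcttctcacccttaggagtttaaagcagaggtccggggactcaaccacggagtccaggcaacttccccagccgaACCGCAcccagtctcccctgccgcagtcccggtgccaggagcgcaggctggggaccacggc
Flt3l, chr7:45136433-45136682, minus strand: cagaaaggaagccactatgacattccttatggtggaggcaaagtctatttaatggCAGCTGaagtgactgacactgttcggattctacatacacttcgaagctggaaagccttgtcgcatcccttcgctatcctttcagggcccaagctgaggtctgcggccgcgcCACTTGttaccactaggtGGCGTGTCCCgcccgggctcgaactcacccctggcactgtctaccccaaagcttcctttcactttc

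The 250 bases before the Kit start held 1 match, the ETS letters at -223 to -218, which 23.3% of the 32851 RefSeq promoter windows of this length also held. The Flt3 window held an E-box match at -245 to -240 and a RUNX match at -61 to -56. The Flt3l window held E-box matches at -195 to -190 and -84 to -79, and an NF-κB match at -66 to -57. E-box letters were in 66.2% of all windows, RUNX letters in 18.6% and NF-κB letters in 17.6%, and the GATA letters, in 16.6% of windows, were in none of the 3. The Kit window was rich in G and C, at 70.8% against a median of 52.4% over all windows, with Flt3 at 59.2% and Flt3l at 53.6%. No printed matches overlapped each other. A match of letters is a description of the sequence and not evidence of a bound factor.

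Flt3, on chr5:147330741-147400489 (minus strand), encodes the receptor for FLT3 ligand. It had 9, 14 and 30 counts in the WT libraries and 49, 39 and 23 in the VC libraries. WT replicate 3 was above VC replicate 13, so the groups overlapped. Means were 1.12 ± 0.632 CPM in WT and 2.18 ± 0.768 CPM in VC, and the log2 fold change of 0.95 did not pass (SE 0.48, 95% interval -0.15 to 2.05, adjusted p = 0.143, edgeR's quasi-likelihood test). Without WT replicate 3 the difference was 1.49 and passed (adjusted p = 0.0447). The dendritic cell list, without Flt3, summed to 43.7 to 60.4 CPM in WT and 122 to 140 CPM in VC. Of 5 tested genes 3 were higher (Zbtb46, Bst2 and Itgax), beside 21.5% of all tested genes, while Siglech and Ccr9 were not called. Most of the VC sum was Bst2, which went from 46.9 ± 7.15 to 79.8 ± 1.29 CPM, and Zbtb46, from 0.979 ± 0.573 to 42.2 ± 8.31 CPM. The list's defining markers Xcr1, Clec9a, Batf3 and Cd209a had too few counts for the test. The B cell list, another lineage with early Flt3 expression, summed to 5.06 to 10.8 CPM in WT and 27 to 76.9 CPM in VC. Of 6 tested genes 5 were higher, beside 21.5% of all tested genes, with Ighm the most abundant. Their part in the Flt3 values was not tested.

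Csf1r encodes the receptor of the macrophage growth factor CSF1 and of IL-34, and lies on chr18:61105572-61132149 (plus strand). It had 90, 159 and 131 counts in the WT libraries and 293, 200 and 131 in the VC libraries. The groups overlapped, with VC replicate 13 below WT replicates 2 and 3 in CPM. Means were 8.19 ± 2.48 CPM in WT and 12.2 ± 4.79 CPM in VC, and the log2 fold change of 0.58 did not pass (SE 0.34, 95% interval -0.20 to 1.36, adjusted p = 0.200, edgeR's quasi-likelihood test). The interval leaves room for a small decrease as well as for more than a doubling. The last 871 bases of the gene overlap Hmgxb3 on the opposite strand, which had 903 to 1015 counts in every library, and since the strandedness of the counting is not given in the sources used here, reads there could be assigned to either gene. The VC libraries with more Csf1r were also those with a higher sum of the monocyte and macrophage list. Without Csf1r, the list summed to 667, 423 and 242 CPM in VC replicates 11, 12 and 13, against 219 to 252 CPM in WT. Lyz2 was the largest part of each VC sum, at 469, 266 and 119 CPM. Not every gene of the list kept this order within VC, and C1qa and Mrc1 were among those that did not. Of its 15 genes, all tested, 5 rose (Cd68, Ly6c2, Vcam1, Fcgr1 and Lyz2) and 2 fell (Ccr2 and Cx3cr1). Adgre1 and the complement genes C1qa, C1qb and C1qc were not called. Over all tested genes 21.5% rose and 22.7% fell, 44.2% together, so the number called is not a result about these cells. The granulocyte list followed the same order within VC, at 4108, 2681 and 1157 CPM, against 195 to 605 CPM in WT. All 14 of its genes rose, beside 21.5% of all tested genes. Their part in the Csf1r values was not tested.

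Pdgfrb, on chr18:61045150-61085061 (plus strand), encodes the PDGF receptor that marks pericytes. It had 74, 12 and 11 counts in the WT libraries and 4, 9 and 3 in the VC libraries. The groups did not overlap, but WT replicate 1 alone held 74 of the 97 WT counts. Means were 2.09 ± 2.35 CPM in WT and 0.313 ± 0.185 CPM in VC, with a log2 fold change of -2.71 (SE 0.89, 95% interval -4.78 to -0.63, adjusted p = 0.0409, edgeR's quasi-likelihood test). The gene entered the test through its WT counts. Without WT replicate 1 the difference was -1.22 and did not pass (adjusted p = 0.148), and the call was also lost without VC replicate 11, 12 or 13, at adjusted p values of 0.118, 0.0660 and 0.113.

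Pdgfra, on chr5:75152292-75198215 (plus strand), encodes the other PDGF receptor and was nearly silent. It had 5, 1 and 1 counts in the WT libraries and 0 in each VC library, and its highest count was again in WT replicate 1. Kitl, on chr10:100015630-100100416 (plus strand), encodes stem cell factor, which bone marrow stroma and endothelium are known to supply. It had 0, 0 and 1 counts in WT and 0, 15 and 1 in VC, so VC replicate 12 held 15 of its 16 VC counts. Neither gene was tested. The WT libraries, with the most Kit RNA, thus had almost no RNA for its ligand.

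The stromal cell and pericyte list, without the 3 members that belong to it, showed how little RNA of such cells was in the sorted samples. It summed to 1.09 to 1.76 CPM in WT and 4.57 to 6.0 CPM in VC, and Col3a1 was at 0 in every library. Cxcl12 was the one tested gene of the 12 in this list. It had 12, 4 and 13 counts in WT and 49, 67 and 58 in VC, and entered the test mainly through its VC counts. It rose from 0.612 ± 0.295 to 3.41 ± 0.506 CPM. The endothelial list summed to 63.5 to 89.8 CPM in WT and 73.4 to 85.0 CPM in VC, mostly from Egfl7 and Plvap, and Emcn was at 0 in every library. Within that sum genes moved in opposite directions. Of 5 tested genes 3 rose (Tek, Esam and Egfl7), beside 21.5% of all tested genes. Plvap fell, from 43.5 ± 12.5 to 16.6 ± 2.51 CPM. WT replicate 1, the library with most of the Pdgfrb counts, was at 1.75 CPM in the stromal list. In the endothelial list it had the lowest sum of all libraries, 63.5 CPM. The part of these cells in the Pdgfrb values was not tested.

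Flt3l, on chr7:45129788-45136432 (minus strand), encodes the FLT3 ligand, which many blood cells are known to make. It had 666, 652 and 770 counts in the WT libraries and 593, 588 and 578 in the VC libraries. The groups did not overlap and the spread within each was narrow, at 44.7 ± 1.73 CPM in WT and 34.5 ± 0.413 CPM in VC. The log2 fold change was -0.37 (SE 0.086, 95% interval -0.57 to -0.17, adjusted p = 0.0102, edgeR's quasi-likelihood test), a 1.29-fold decrease, and it kept its call without any one library, at -0.40 to -0.35. Flt3l thus changed far less than Kit but was measured with the smallest error of the family. The gene overlaps Gm45713, which is annotated on the same strand and had 0 counts, so reads shared between them may not be fully counted. Its nearest neighbours, Rpl13a, 1.03 kb away, and Aldh16a1, at 4.25 kb, were not called.

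**Figure D2:**
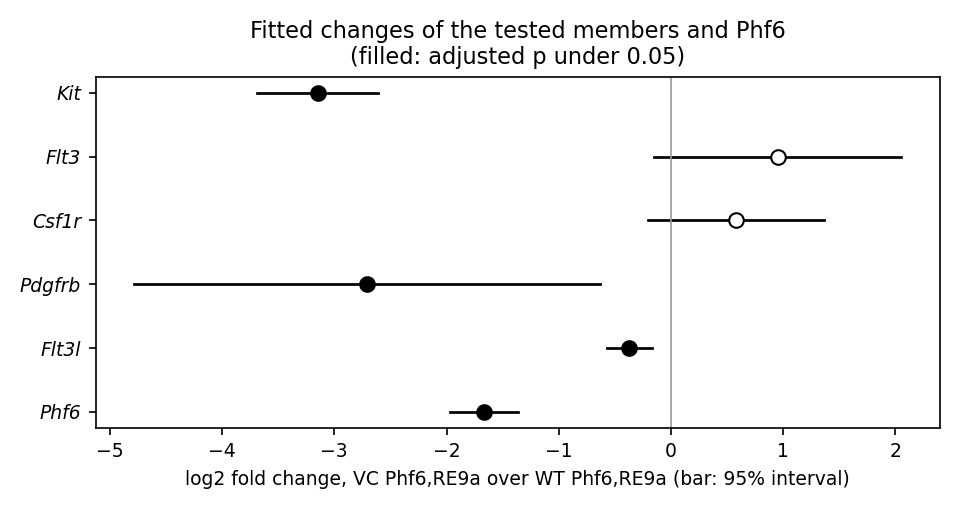
Log2 fold change of VC over WT for the 5 tested members and for Phf6, with 95% intervals from edgeR; filled circles passed an adjusted p of 0.05. The interval of Kit ends at -2.61, that of Flt3l is the narrowest, and those of Flt3 and Csf1r include 0.

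Levels between genes were compared as FPKM, the authors' values scaled to gene length and to library sizes adjusted by DESeq2 size factors. Kit stood at 301, 300.2 and 208 FPKM in WT and at 24.1, 39.2 and 27.6 FPKM in VC. In all 6 libraries the order began Kit, Flt3l, Csf1r, with Flt3 next in 5 of them and Pdgfrb in WT replicate 1. Flt3l was at 11.4 ± 0.388 FPKM in WT and 8.79 ± 0.110 FPKM in VC, and Csf1r at 1.66 ± 0.500 and 2.48 ± 0.970 FPKM. The gaps between these 3 exceeded their spread in both groups, and mean Kit exceeded mean Flt3l 23.6-fold in WT and 3.45-fold in VC. Below them, Flt3 at 0.179 ± 0.101 FPKM and Pdgfrb at 0.381 ± 0.429 FPKM in WT could not be ordered beyond their spread, while in VC Flt3, at 0.348 ± 0.123 FPKM, was above Pdgfrb, at 0.0565 ± 0.0338 FPKM. Pdgfra and Kitl did not exceed 0.147 FPKM in any library.

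The receptor RNA of the family was almost all Kit in WT and less so in VC. Kit made up 99.2% ± 0.119 of the summed FPKM of the 5 receptors in WT and 91.0% ± 4.52 in VC, where the libraries were at 85.7%, 93.3% and 93.8%. The share of Csf1r was 0.627% ± 0.203 in WT and 7.80% ± 4.03 in VC, and that of Flt3 was 0.0733% ± 0.0571 and 1.08% ± 0.492. The ratio of Kit to the other 4 receptors together was 137, 120.2 and 103 in WT and 6.01, 13.9 and 15.2 in VC, with no overlap. The summed FPKM of those 4 was 2.24 ± 0.240 in WT and 2.88 ± 1.09 in VC, with overlap, so most of the change in the ratio was the change of Kit.

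The remaining ligands of the family, CSF1 and IL-34 for CSF1R and the PDGF chains for the PDGF receptors, were examined as a list of 6 genes. Csf1 and Pdgfb had enough counts for the test, and they moved in opposite directions. Csf1, the macrophage growth factor, had 1893, 501 and 644 counts in WT and 23, 51 and 16 in VC. It fell by 5.20 on the log2 scale (SE 0.66, adjusted p = 0.000695, edgeR's quasi-likelihood test), farther than any member. The highest Csf1 count was in WT replicate 1, the library with most Pdgfrb, and without it the log2 fold change was -4.37; without VC replicate 12 it was -5.81. Csf1 and Csf1r thus went from 12.3 ± 9.49 FPKM of ligand beside 1.66 ± 0.500 FPKM of receptor in WT to 0.330 ± 0.202 FPKM of ligand beside 2.48 ± 0.970 FPKM of receptor in VC.

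Pdgfb, the PDGF B chain that binds both PDGF receptors, had 489, 728 and 588 counts in WT and 2632, 2379 and 3309 in VC. It rose by 2.07 on the log2 scale (SE 0.20, adjusted p = 0.000196, edgeR's quasi-likelihood test), a 4.20-fold increase with every VC library above every WT library. Its receptors were at most 0.877 FPKM in any library, so the ligand was measured in cells with little RNA for either receptor. Pdgfa had 1 count in each group and Pdgfc 2 to 8 counts per library, while Il34 and Pdgfd were at 0 in all 6.

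**Figure D3:**
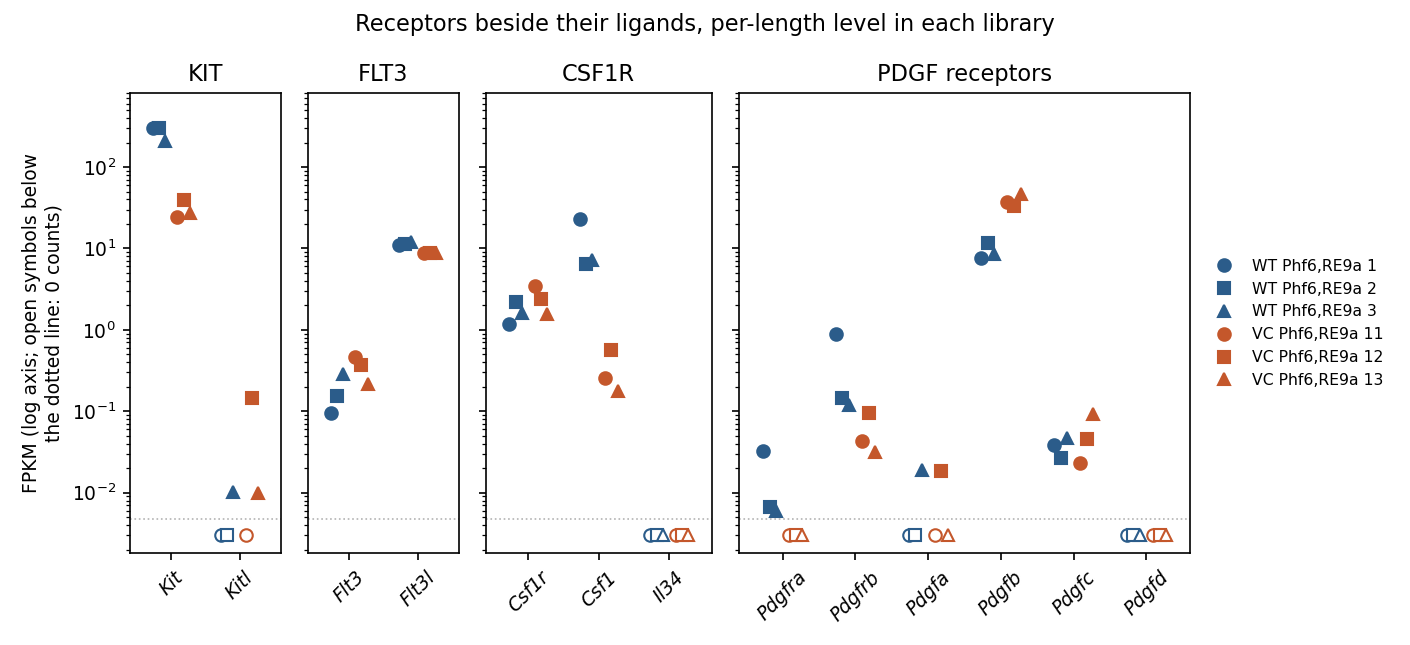
FPKM (log axis) of each receptor beside its ligands in each library, WT in blue and VC in orange, open symbols for 0 counts. Kit, Csf1 and Pdgfb separate the groups widely, the first and second lower and the third higher in VC, whereas Csf1r stays within 1.20 to 3.50 FPKM throughout.

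Of the 53 receptor tyrosine kinases outside the family, 18 could be tested, 6 rose (33.3%, beside 21.5% of all tested genes) and 7 fell (38.9%, beside 22.7%), with a median log2 fold change of 0.19 against 0.013 for all tested genes, and 11 were at 0 in every library. Fgfr1, a fibroblast growth factor receptor, was the most abundant of them by CPM and fell from 586 ± 185 to 265 ± 5.93 CPM (log2 fold change -1.15, adjusted p = 0.0039, edgeR). Igf1r, the IGF1 receptor, fell by 0.63 (adjusted p = 0.0267, edgeR), a call lost without WT replicate 1 or VC replicate 11 (adjusted p = 0.0804 and 0.0674). Insr, the insulin receptor, rose by 0.46 (adjusted p = 0.0342, edgeR), a call lost without any one library other than WT replicate 2, at adjusted p values of 0.0723 to 0.107, and by limma on log2(FPKM + 1), at 0.0514. Of these 3 most abundant receptors of other families, Fgfr1 held its call in all fits that left out a library.

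The other tested receptor kinases were scarce but some differed widely. Ephb2, Ryk, Tek, Mertk and Met entered the test through the group in which they were higher, where the other group had few counts. Ephb2, an ephrin receptor, had 49, 46 and 41 counts in WT and 3, 1 and 3 in VC (log2 fold change -4.34, adjusted p = 0.000232, edgeR). Ryk, a WNT co-receptor, had 13, 140 and 242 counts in WT and 2, 1 and 4 in VC (log2 fold change -5.84, adjusted p = 0.0046, edgeR; -5.16 without WT replicate 3 and -6.45 without VC replicate 13). Tek, the angiopoietin receptor TIE2, was singled out after its values were seen: it had 0 counts in each WT library and 72, 217 and 27 in VC, and was at least 31.9-fold higher in VC against a floor of 3 counts per WT library, or at least 15.1-fold without VC replicate 12. The TAM family receptors Axl and Mertk and the HGF receptor Met, also picked after their values were seen, rose as well, each at under 10 CPM. The Axl call was lost without VC replicate 11 or 12 (adjusted p = 0.0506 and 0.0648), the Mertk call in 9 of its 11 alternatives (by DESeq2, without a count filter, in both limma fits and without any one library other than WT replicate 2), and Met rose by 2.23 on the log2 scale, or 2.92 without WT replicate 3.

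Genes that pass the signal on from these receptors fell more often than they rose. Of 30 proximal transducers 29 were tested, 15 fell (51.7%, beside 22.7% of all tested genes) and 3 rose (10.3%, beside 21.5%), with a median log2 fold change of -0.31. Plcg1, the phospholipase Cγ1, fell from 210 ± 31.3 to 27.5 ± 4.40 CPM (log2 fold change -2.93, adjusted p = 2.84e-05, edgeR), close to the size of the Kit change. Tec, a kinase recruited to KIT and cytokine receptors, fell by 3.47 (adjusted p = 2.56e-05, edgeR), and Gab2, the docking adaptor of KIT, fell by 1.80 (adjusted p = 2.91e-05, edgeR). These 3 had the smallest p-values of the list. Plcg1 overlaps Zhx3 on the opposite strand, which had 1108 counts over the WT libraries and 406 over the VC libraries against 9749 and 1404 for Plcg1.

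The more abundant transducers changed less, with an exception. Fes, a myeloid tyrosine kinase activated by KIT, fell from 419 ± 143 to 145 ± 24.5 CPM (log2 fold change -1.53, adjusted p = 0.0029, edgeR). Stat5b, a transcription factor activated by KIT and FLT3, fell by 0.31 (adjusted p = 0.0240, edgeR), a call lost without WT replicate 1 or any one VC library (adjusted p = 0.0507 to 0.0940). Grb2, the adaptor that links receptors to RAS, was at 346 ± 16.5 CPM in WT and 298 ± 18.5 CPM in VC and was not called (adjusted p = 0.0793, edgeR). Within the SRC family, members chosen after their values were seen went different ways: Src fell from 69.8 ± 13.6 to 11 ± 0.876 CPM, Lyn fell by 0.28 on the log2 scale with the call lost without a count filter, without WT replicate 1 or without any one VC library, and the myeloid kinase Fgr rose. Fgr had 338, 253 and 79 counts in VC replicates 11, 12 and 13, the order of the granulocyte and monocyte lists given beside Csf1r, and the Fgr call was lost without VC replicate 11 or WT replicate 1 (adjusted p = 0.0544 and 0.0549). The part of these cells in the Fgr values was not tested.

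The inhibitors of receptor signaling also fell more often than they rose: of 19 genes 17 were tested and 10 fell, 58.8% beside 22.7% of all tested genes. The 1 gene that rose was 5.9% of the list, beside 21.5% of all tested genes (Dok1, named after its values were seen, at 0.42 on the log2 scale, lost without VC replicate 12), with a median of -0.37. Sh2b3, the adaptor LNK that restrains KIT and JAK2, fell by 1.70 (adjusted p = 0.000132), Socs1 by 1.53 (adjusted p = 0.000422) and the RAS-inhibiting adaptor Dok2 by 1.25 (adjusted p = 0.00049), all by edgeR. The most abundant was Inpp5d, the lipid phosphatase SHIP1, which fell from 800 ± 133 to 395 ± 28.7 CPM (log2 fold change -1.02, adjusted p = 0.0010, edgeR). Cbl, the ubiquitin ligase that degrades active KIT and CSF1R, was not called (0.19, adjusted p = 0.265, edgeR), nor was Ptpn6, the phosphatase SHP1 (-0.03, adjusted p = 0.861, edgeR), which had 159 ± 18.5 CPM in WT and 157 ± 10.5 CPM in VC.

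Transcription factors known to act on genes of this family in blood cells showed both directions. Of 20 genes 19 were tested, 9 fell (47.4%, beside 22.7% of all tested genes) and 3 rose (15.8%, beside 21.5%), with a median log2 fold change of -0.27. Gata2, which sustains Kit in progenitors and mast cells, fell from 1401 ± 225 to 859 ± 122 CPM (log2 fold change -0.71, adjusted p = 0.0087, edgeR). The ETS factors Fli1 and Erg fell by 1.03 and 2.13 (adjusted p = 0.000158 and 0.000156, edgeR), and Mitf, the mast cell factor that acts on Kit and was singled out after its values were seen, fell by 1.13 (adjusted p = 0.0021, edgeR). Lmo2, a partner of TAL1 and GATA factors, rose from 90.4 ± 16.9 to 332 ± 20.7 CPM (log2 fold change 1.88, adjusted p = 8.62e-05, edgeR). Tal1 and Runx1, both abundant, were not called by edgeR: Tal1 differed by -0.23 (adjusted p = 0.0694, edgeR) and passed without WT replicate 2, and Runx1 differed by -0.27 (adjusted p = 0.0547, edgeR) and passed without WT replicate 3. DESeq2 and limma on both FPKM scales, each with all 6 libraries, did call Runx1 lower, at -0.28 to -0.27 (adjusted p = 0.0281 to 0.0328). Spi1 (PU.1) and Cebpa, regulators of the monocytic side, were also looked at after their values were seen: Spi1 was not called, at 82.4 ± 10.4 CPM in WT and 94.9 ± 10.2 CPM in VC, and Cebpa rose from 1.49 ± 0.772 to 5.79 ± 2.26 CPM.

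**Figure D4:**
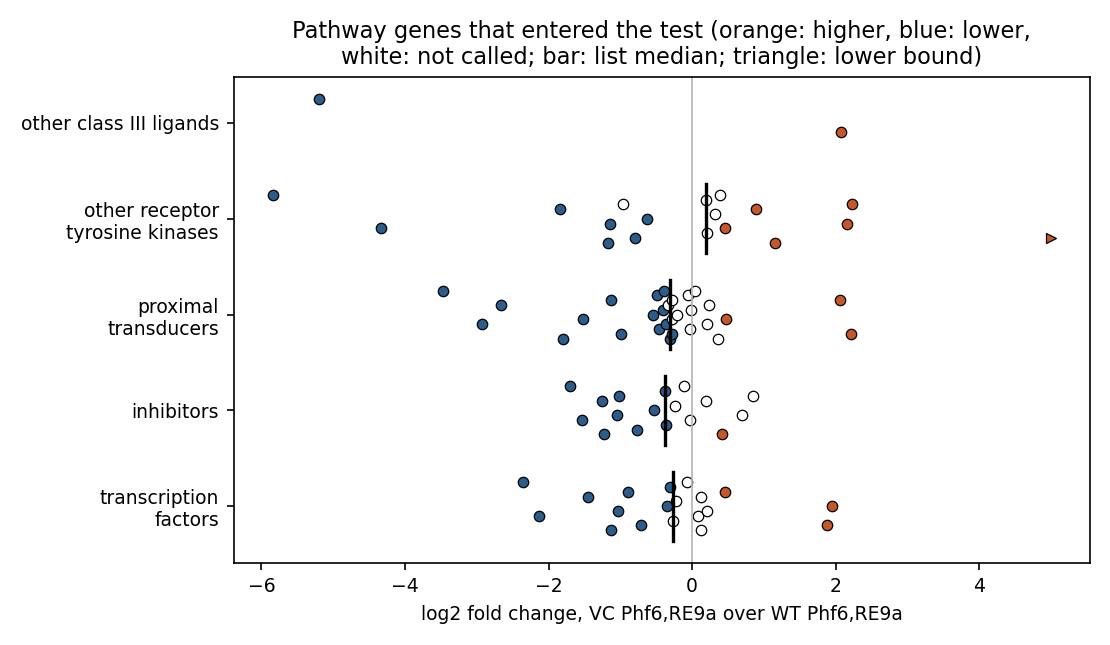
Log2 fold change of every tested gene of the 5 pathway lists, orange for higher and blue for lower in VC at an adjusted p of 0.05, white for not called, black bars for list medians, and a triangle for Tek at its lower bound. Transducers, inhibitors and transcription factors lie mostly below 0, and the medians of these lists are between -0.37 and -0.27.

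Kit and Pdgfra lie 377 kb apart on chromosome 5, and Pdgfrb and Csf1r lie 20.5 kb apart on chromosome 18, the known tandem pairs of this family. Next to Kit on the other side, Kdr, the VEGF receptor, began 276 kb away with 7, 11 and 23 counts in WT and 18, 19 and 14 in VC and was not called (log2 fold change 0.20, 95% interval -0.84 to 1.24, adjusted p = 0.745, edgeR). That interval does not reach the decrease of Kit. In the other pair, Csf1r was not called while Camk2a, 57.0 kb before Pdgfrb, fell with 76, 213 and 109 counts in WT and 2, 15 and 4 in VC (log2 fold change -4.37, adjusted p = 0.0020, edgeR; -5.54 without VC replicate 12). Camk2a too entered the test through its WT counts. The nearest tested genes around Kitl were Dusp6, 748 kb before it, and Tmtc3, 343 kb after it. Dusp6, a phosphatase of ERK whose transcription is known to follow ERK activity, fell from 56.8 ± 5.06 to 5.32 ± 2.87 CPM (log2 fold change -3.41, adjusted p = 0.000264, edgeR). Tmtc3 rose by 0.58 (adjusted p = 0.0080, edgeR). The neighbours Gm42576 (before Pdgfra), Polr1d and D5Ertd605e (around Flt3) and Hmgxb3 (after Csf1r) were not called.

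Genes whose pattern over the 6 libraries was most like a member's were ranked by the root mean square difference of their centred log2 CPM. Since the libraries fall into 2 groups, this measure mostly finds genes with a similar difference between groups. Nearest to Kit were Gm26617 (0.193), Plcg1 (0.204) and 5730460C07Rik (0.212), all lower in VC, a direction that the measure fixes in advance. Gm26617 had 57, 36 and 38 counts in WT and 2, 6 and 3 in VC, and entered the test through its WT counts. Nearest to Flt3l were Copb2, a coat protein of transport vesicles (0.021), Patl1 (0.027) and Zfp110 (0.029). Flt3l had the smallest spread and change of the tested members on this log2 scale, and also the smallest distances. Nearest to Flt3 were H2-Aa, a class II antigen presentation gene (0.154), Arhgef37 (0.155) and Emb (0.155), and nearest to Csf1r were Mob3b (0.143), Ltb4r1 (0.150), a leukotriene receptor, and Itgb1bp2 (0.163). For Pdgfrb no tested gene came closer than Ccdc50 (0.398), followed by Cdkn2a (0.413) and Abat (0.416), and the differences of these 3 all shrank without WT replicate 1, from -1.85 to -1.15, from -2.57 to -1.57 and from -1.88 to -1.21 on the log2 scale.

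Lineage markers outside those set beside a member above moved as well. The erythroid list summed to 1745 to 2509 CPM in WT and 6212 to 7189 CPM in VC, led by Hbb-bs and Hba-a1. All 10 of its genes rose, beside 21.5% of all tested genes. The megakaryocyte list summed to 258 to 365 CPM in WT and 58.6 to 78.8 CPM in VC, led by Itga2b and Gp1ba. Of 5 tested genes 2 were higher and 2 lower, beside 21.5% and 22.7% of all tested genes, and Gp1bb was at 0 in every library. The T cell list stayed between 9.28 and 16.3 CPM in all libraries, with Cd247 lower and Lck higher. Early erythroid and megakaryocytic cells are known to express Kit, and the part of these lineages in the Kit values was not tested.

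**Figure D5:**
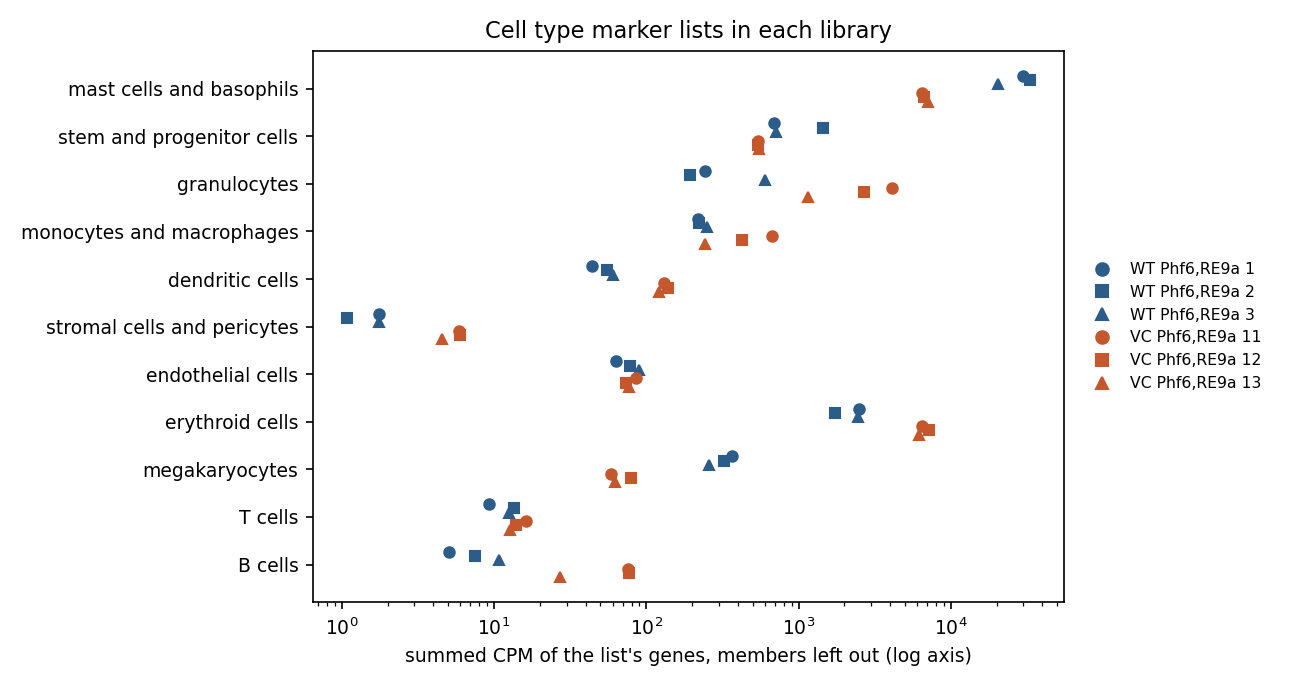
Summed CPM (log axis) of each cell type marker list in each library, without the 7 members, WT in blue and VC in orange. Mast cell, stem and progenitor and megakaryocyte sums are lower in all 3 VC libraries, erythroid, granulocyte, dendritic, B cell and stromal sums are higher, and monocyte sums overlap. The separation of the stem and progenitor sums rests on Cd34.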

How the data were processed

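Libraries were made with a TruSeq RNA kit and sequenced as paired ends. The deposited table holds raw counts per gene and the authors' FPKM values. The FPKM matched counts divided by gene length and by library sizes scaled with DESeq2 size factors, not by total counts. The table also holds columns of the authors' own DESeq2 comparison (mean normalized counts, log2 fold change and p-values), which were not used. The submitters' processing notes name Bowtie 0.12.0 and mm8, whereas the table's gene coordinates are those of GRCm38; the counting tool and strandedness are not given in the sources used here. Groups came from the labels. Genes kept by filterByExpr (14169 of 54532) were tested with edgeR 4.0.16 (TMM, quasi-likelihood, Benjamini-Hochberg over all genes tested, threshold 0.05) in R 4.3.3, after the script was tested on simulated data. CPM uses TMM-scaled library sizes. Alternatives were DESeq2 1.42.0, RLE scaling, other filters, limma 3.58.1 on log2(FPKM + 1) and log2(FPKM + 0.1), and leaving out each library. At totals of 15675358 to 16817994 counts, 3 counts is about 0.193 CPM in WT; this covers counting error only.

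The members, gene lists and tests were chosen with earlier results of these data known. Named were all members, Phf6, in each pathway list the 3 genes with the smallest p and the 3 with the highest CPM, all other ligands, nearest tested neighbours, the 3 genes most like each tested member, the top markers, and genes marked as chosen afterwards. Overlapping genes with counts are named for members and for Plcg1; other listed genes overlap antisense or small genes too.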

Additional observations from a re-analysis of the deposited data

How the results depend on the processing

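No paired analysis was possible because the groups share no replicate numbers (1 to 3 in WT, 11 to 13 in VC). Of 238 values recomputed for the members, Phf6 and the counts of called genes, 226 kept direction and side of the threshold, 6 lost the threshold, all for Pdgfrb, 1 gained it (Flt3), 5 counts moved by over 1.5 times, and 0 reversed. Pdgfrb was not called by limma on log2(FPKM + 1), at -0.34, or on log2(FPKM + 0.1), at -1.29, which compress low genes by construction, and ranged from -3.29 to -1.22 when a library was left out. Flt3 ranged from 0.64 to 1.49 in the same fits, so that 0 to 1 members were higher. With at least 10 counts required in every library, Flt3 and Pdgfrb left the test and 2 other receptor tyrosine kinases were higher in place of 6, since fewer genes were tested; leaving out a library gave 3 to 7. DESeq2 called 2 inhibitors higher in place of 1; the cause was not tested. Kitl and Pdgfra were fitted only without a count filter (3.46, adjusted p = 0.144 and -4.37, adjusted p = 0.106 by edgeR) and by DESeq2 (3.75, adjusted p = 0.195, for Kitl; no adjusted p for Pdgfra), and neither was called. Scaling moved the median of all genes by less than 0.1. Of 62 other named genes, 43 kept call and direction throughout; direction changed when a library was left out for 5 that were not called, Ptpn6 (-0.12 to 0.049), Gm42576 (-0.65 to 0.078), Kdr (-0.11 to 0.73), Polr1d (-0.15 to 0.036) and Rpl13a (-0.050 to 0.30). With 3 libraries a group, members below about 3 CPM (Flt3, Pdgfrb, Pdgfra and Kitl) rest on 0 to 74 counts per library.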
